A study of Mus musculus with 8 samples.

Results

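The Notch pathway and Deltex genes described here are 10 genes of the 38215 listed in the deposited tables, and they were chosen by symbol with measured values of these libraries already known. They comprised the receptors Notch1, Notch2 and Notch3, the nuclear effectors Rbpj and Maml2, the target genes Hes1 and Nrarp, and the Deltex genes Dtx1, Dtx3 and Dtx4. Dtx1 was picked because it was far higher in the spleen than in the bone marrow, so its difference between the tissues is a description and not a finding of a test. For each tissue 4 RNAseq libraries were made from sorted FoxP3+ regulatory T cells (Treg), which came from bone marrow for the BM-Treg group and from spleen for the SP-Treg group, of mice that were 12 weeks old. The labels give the genotype C57Bl/6 for all 8 libraries. The paper names the mice of the RNAseq as B6.FoxP3-GFP, in which a green fluorescent protein marks the cells that express FoxP3. All mice were untreated. The labels place BM-Treg 1 to 3 in batch 1, from females, and BM-Treg 4 with the SP-Treg libraries in batch 3, from males. Batch and sex therefore cannot be told apart, and BM-Treg 4 alone shares its batch with the spleen. The paper's methods state that mice were female unless noted, which differs from the male labels. The names of the SP-Treg libraries carry overlapping ranges of numbers, and the sources used here do not say whether a range stands for mice that were pooled or shared between libraries. If mice were shared, the 4 SP-Treg libraries are not independent, and each SD, SE and p below may be too small.

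Notch receptors are cut on contact with Delta or Jagged ligands of a neighbouring cell, first by ADAM proteases and then by gamma-secretase. The freed intracellular domain enters the nucleus, where it joins the DNA-binding protein RBPJ and a Mastermind-like coactivator and switches on genes such as Hes1, Hey1, Nrarp and Dtx1. In the T cell lineage Notch1 drives commitment in the thymus, while Notch2 is known in the spleen for its part in the formation of marginal zone B cells. Deltex proteins are ubiquitin ligases, of which Deltex1 binds the Notch intracellular domain and is also known for its link to T cell anergy.

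Expected counts, the estimated number of reads per gene, summed to between 12427136 and 21921252 per library. The defining Treg markers were present in every library, with Foxp3 at 1497, 1660, 1735 and 2081 CPM (counts scaled to library size) in BM-Treg 1 to 4 and at 1372, 1457, 1721 and 1272 CPM in SP-Treg 1 to 4. In the test across all genes, edgeR called 8.75% of 13397 genes at an adjusted p under 0.05, with 3.72% higher and 5.02% lower in BM-Treg, and the 2 tissues did not overlap in CPM for 16.2%. Of the genes called, 42.6% were higher in BM-Treg, against 51.3% when at least 10 counts were required in every library and 62.4 and 63.0% on the FPKM scale, which divides counts by transcript length and depth. Of the 10 members 8 passed the expression filter, and 1 of the 8, Dtx1, was past that threshold. The 2 tissues did not overlap for 2 of the 8, Dtx1 and Dtx3. Since the members were chosen with this contrast known, nothing is read from those counts, and no p is given for a member. Fold changes below are log2 values of BM-Treg over SP-Treg from the fit, with their standard error (SE). A fit with batch as a term compares BM-Treg 4, the one bone marrow library of batch 3, with the spleen, and assumes that this library varies like the others.

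Among the Deltex genes, Dtx1 was low in the bone marrow and high in the spleen. Dtx1 (ENSMUSG00000029603, chr5:120680202-120711927, minus strand) stood at 26.9, 30.6, 28.9 and 42.9 CPM in BM-Treg 1 to 4. In SP-Treg 1 to 4 it stood at 164, 170, 130 and 141 CPM. The 4 BM-Treg libraries all lay below the 4 SP-Treg libraries, and the highest of the BM-Treg values was that of BM-Treg 4, the library that shares its batch with the spleen. The mean was 32.3 ± 7.20 CPM in BM-Treg (SD, n = 4) and 151 ± 19.0 CPM in SP-Treg (SD, n = 4). The log2 fold change was -2.23 (SE 0.15), which is a level 4.70-fold higher in SP-Treg. Within batch 3, where BM-Treg has a single library, the log2 fold change was -1.80, and leaving out any 1 library kept it between -2.39 and -2.13. Among the 673 genes called lower in BM-Treg, Dtx1 ranked 36 by the size of its fitted decrease. In bulk libraries, fewer Dtx1-expressing cells and less Dtx1 RNA per cell cannot be told apart.

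**Figure D1:**
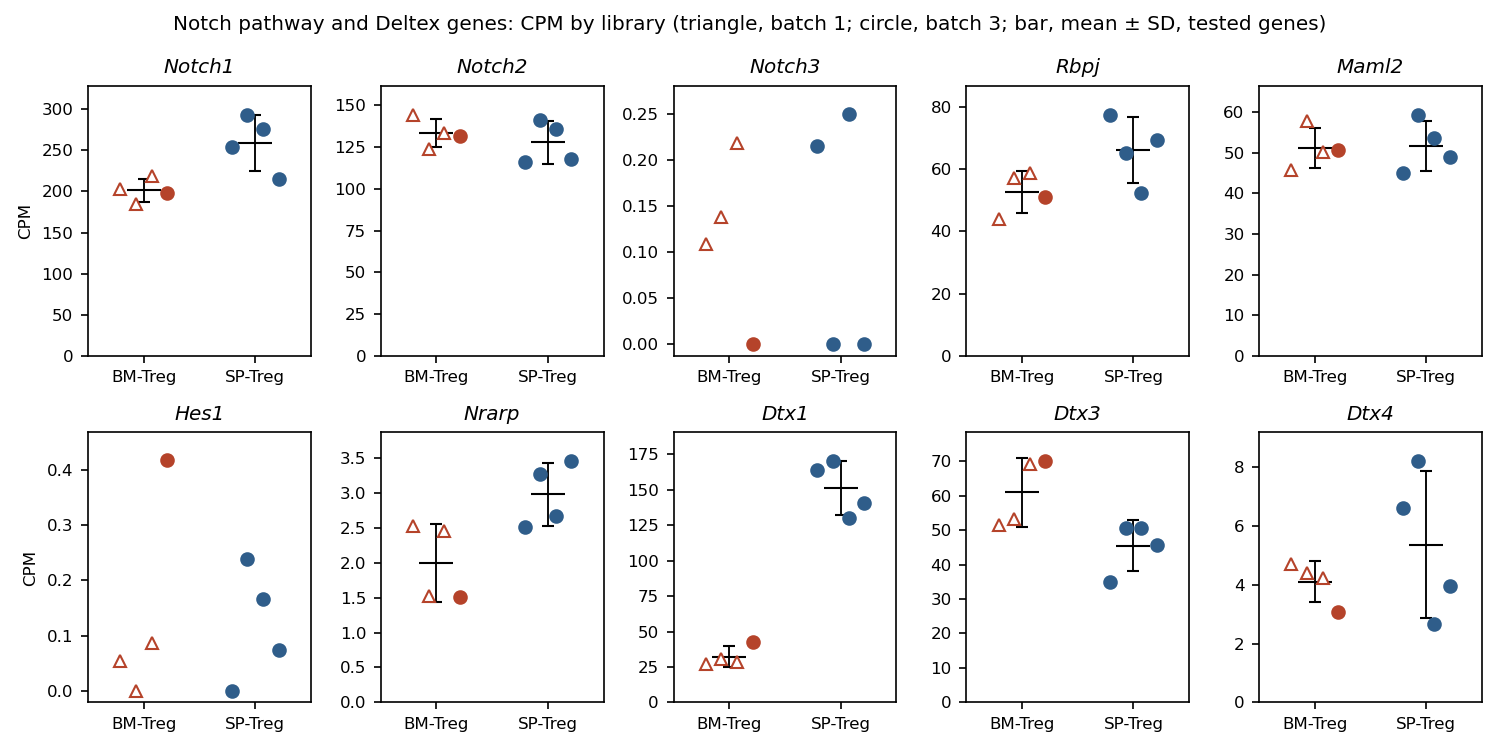
CPM (vertical axis, linear) of each of the 10 members in the 4 BM-Treg and 4 SP-Treg libraries, with open triangles for batch 1, filled circles for batch 3 and bars for the mean ± SD of tested genes. Dtx1 separated the tissues by a wide gap (26.9 to 42.9 against 130 to 170 CPM), Dtx3 by a narrow one, and the other members overlapped.

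B cells are known to express Dtx1, so B cell markers were read in the same libraries. Their summed level over 10 markers was 15.7 to 22.2 CPM in BM-Treg and 17.5, 180, 39.4 and 33.0 CPM in SP-Treg 1 to 4, and the tissues overlapped. Ebf1, which encodes an early B cell transcription factor, was called lower in BM-Treg (adjusted p = 0.033, edgeR), and the other 7 tested markers were not. Pax5 and Blk did not pass the filter, and all 10 markers had a lower mean in BM-Treg. SP-Treg 2 held most of that signal, while SP-Treg 1 had no Pax5 count and a B cell sum within the BM-Treg range. Dtx1 was 164 CPM in SP-Treg 1, and without SP-Treg 2 its log2 fold change was -2.17. The 3 marginal zone B cell markers summed to 1.92 to 2.90 CPM in BM-Treg, and in SP-Treg to 2.23 to 6.69 CPM, and S1pr3 had no count in any BM-Treg library. The 2 markers of CD8 T cells summed to 10.9 to 12.6 CPM in BM-Treg, and in SP-Treg to 13.2 to 41.0 CPM, with no overlap. Cd8a was called lower in BM-Treg (log2 fold change -2.99, adjusted p = 0.029, edgeR) and Cd8b1 was not. Erythroid markers summed to 108, 289 and 177 CPM in SP-Treg 2 to 4 but to 1.94 CPM in SP-Treg 1 and 10.3 to 19.3 CPM in BM-Treg. The part of B cells, CD8 T cells or erythroid cells in the Dtx1 difference was not tested.

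**Figure D2:**
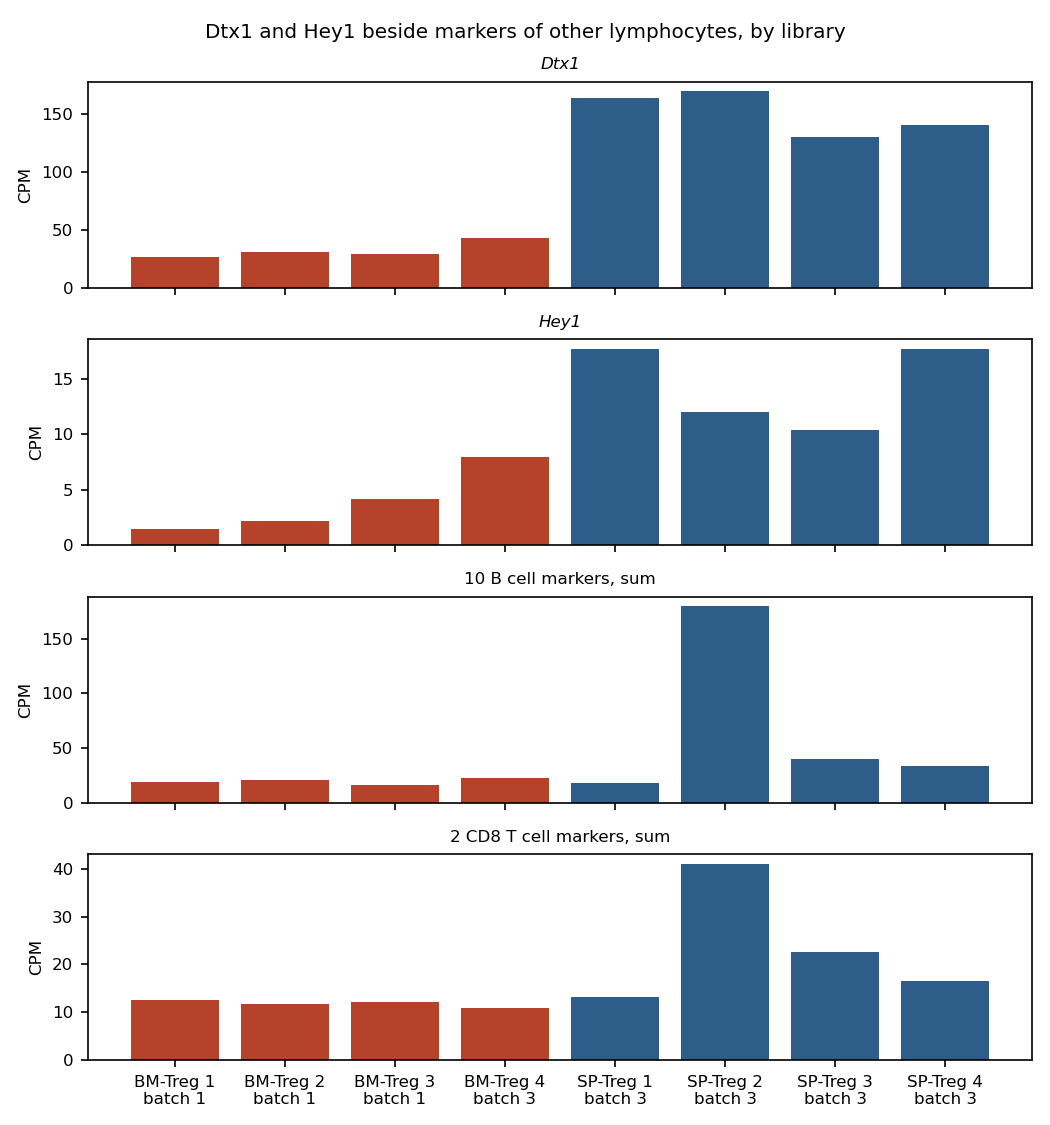
CPM of Dtx1, Hey1, the sum of 10 B cell markers and the sum of 2 CD8 T cell markers (bars, linear axes from 0) in each library, red for BM-Treg and blue for SP-Treg. SP-Treg 1 had 164 CPM of Dtx1 with a B cell sum of 17.5 CPM, while SP-Treg 2 had 170 CPM of Dtx1 with a B cell sum of 180 CPM.

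The other Deltex genes did not show the gap seen for Dtx1. Dtx3 (ENSMUSG00000040415, chr10:127190378-127195728, minus strand) stood at 51.4, 53.2, 69.1 and 69.9 CPM in BM-Treg and at 35.0, 50.7, 50.6 and 45.7 CPM in SP-Treg. All BM-Treg values lay above all SP-Treg values, the nearest being 51.4 and 50.7 CPM, and the log2 fold change was 0.42 (SE 0.14). On the deposited FPKM scale the 2 tissues overlapped for Dtx3, at 29.0 to 40.4 against 25.2 to 32.6 FPKM. The opposite strand of Dtx3 carries the overlapping lincRNA AC144852.1, which was given 423 expected counts over all libraries beside 6855 for Dtx3, and whether the reads were assigned by strand is not given in the sources used here. Dtx4 (ENSMUSG00000039982, chr19:12466341-12501996, minus strand) was low, at 4.71, 4.40, 4.25 and 3.09 CPM in BM-Treg and at 6.61, 8.20, 2.68 and 3.96 CPM in SP-Treg. Its SP-Treg values spread on both sides of the BM-Treg values (log2 fold change -0.38, SE 0.32). Within batch 3 the log2 fold change was 0.64 for Dtx3 and -0.78 for Dtx4.

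Of the remaining Deltex genes, which are not members, Dtx3l was lower in BM-Treg and Dtx2 was not called. Dtx3l, whose protein partners with PARP9, stood at 196, 174, 211 and 186 CPM in BM-Treg and at 271, 244, 237 and 251 CPM in SP-Treg, with no overlap. On the deposited FPKM scale the tissues overlapped for Dtx3l, at 35.05 to 44.15 against 43.2 to 56.99 FPKM. The log2 fold change of Dtx3l was -0.39 (SE 0.10, adjusted p = 0.022, edgeR). The call was lost without BM-Treg 1, BM-Treg 2, BM-Treg 4 or SP-Treg 1 (adjusted p between 0.052 and 0.0997), with batch as a term (0.18) and on the FPKM scale (0.22). Within batch 3 the log2 fold change of Dtx3l was -0.41. Dtx3l also overlaps Parp9 on the opposite strand, to which 7052 expected counts were assigned beside 27462 for Dtx3l. Dtx2 averaged 22.3 ± 2.91 CPM in BM-Treg, and in SP-Treg 20.0 ± 2.76 CPM (SD, n = 4 each, adjusted p = 0.56).

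The receptors had smaller fold changes than Dtx1. Notch1 (ENSMUSG00000026923, chr2:26457903-26516663, minus strand) stood at 203, 185, 219 and 199 CPM in BM-Treg and at 254, 293, 276 and 215 CPM in SP-Treg. SP-Treg 4 fell below BM-Treg 3, and the other 3 SP-Treg libraries lay above all BM-Treg libraries. The log2 fold change of Notch1 was -0.36 (SE 0.11) over all libraries and -0.37 within batch 3. The opposite strand of Notch1 carries the lincRNA Gm13568, with 397 expected counts beside 28535 for Notch1. Notch2 (ENSMUSG00000027878, chr3:98013538-98150367, plus strand) stood at 144, 124, 133 and 131 CPM in BM-Treg and at 116, 141, 136 and 118 CPM in SP-Treg. The 2 sets of Notch2 values were interleaved, with a log2 fold change of 0.06 (SE 0.10), also within batch 3. Notch3 (ENSMUSG00000038146, chr17:32120820-32166880, minus strand) was given 16 expected counts over all 8 libraries, with 2, 3, 5 and 0 in BM-Treg and 3, 0, 3 and 0 in SP-Treg, and did not pass the filter. A count of 0 allows up to 3 counts, which corresponds to 0.131 to 0.251 CPM depending on the library and covers counting error only. Notch4, the remaining receptor, reached at most 15 counts in a library and was not tested either.

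The effectors were expressed in every library. Rbpj (ENSMUSG00000039191, chr5:53555779-53657445, plus strand), the DNA-binding partner of the Notch intracellular domain, stood at 44.1, 57.0, 58.8 and 50.9 CPM in BM-Treg and at 77.4, 65.2, 52.2 and 69.4 CPM in SP-Treg. SP-Treg 3 fell among the BM-Treg values and the other 3 SP-Treg libraries lay above them, with a log2 fold change of -0.33 (SE 0.13). Maml2 (ENSMUSG00000031925, chr9:13619990-13709533, plus strand), a Mastermind-like coactivator, stood at 45.7, 57.8, 50.3 and 50.8 CPM in BM-Treg and at 45.0, 59.3, 53.7 and 48.9 CPM in SP-Treg. The Maml2 values covered the same range in both tissues (log2 fold change -0.02, SE 0.12), and the sign of that value turned on the FPKM scale, under both other expression filters and without BM-Treg 1, SP-Treg 2 or SP-Treg 3. Within batch 3 the log2 fold change was -0.36 for Rbpj and -0.01 for Maml2.

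RBPJ binds DNA at sites built around the letters TGGGAA. RefSeq promoter windows on GRCm38.p6, from 250 bases before to 50 bases after a start site, were matched for 7 of the 10 members and comprised 9 windows. The letters TGGGAA, read on both strands, occurred in 3 of the 9 windows and in 25.6% of all 32851 windows, and the longer form GTGGGAA, which contains them, occurred in 0 of the 9 and in 6.38% of all windows. The first Rbpj window held them at positions -149 and -65 counted from the start site, and the second Rbpj window held the same letters as the latter at its own position -205. The second Maml2 window, at a start site inside the gene, held them at position -145. The Dtx1 window held no match, and its 250 bases before the start site lay wholly in annotated exons, so they are not printed. No window was matched for Hes1, Dtx3 or Dtx4. A match describes the letters and not a bound site. The stretches printed here lie outside annotated exons of GENCODE M21, are written 5′ to 3′ on the plus strand, and have each TGGGAA or its reverse complement in capitals. They are the stretch upstream of Rbpj at chr5:53590096-53590213 and that of the second Maml2 window at chr9:13662210-13662459. For contrast, the stretch upstream of the target gene Nrarp at chr2:25180508-25180757, which holds no match, is also printed.
Rbpj: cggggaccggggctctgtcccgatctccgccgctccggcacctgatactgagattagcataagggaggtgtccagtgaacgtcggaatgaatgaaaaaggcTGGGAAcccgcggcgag
Maml2: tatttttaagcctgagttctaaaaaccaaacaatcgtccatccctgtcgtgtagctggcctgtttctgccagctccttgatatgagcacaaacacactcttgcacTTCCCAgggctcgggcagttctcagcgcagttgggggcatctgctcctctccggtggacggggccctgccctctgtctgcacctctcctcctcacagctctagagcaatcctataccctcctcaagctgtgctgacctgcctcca
Nrarp: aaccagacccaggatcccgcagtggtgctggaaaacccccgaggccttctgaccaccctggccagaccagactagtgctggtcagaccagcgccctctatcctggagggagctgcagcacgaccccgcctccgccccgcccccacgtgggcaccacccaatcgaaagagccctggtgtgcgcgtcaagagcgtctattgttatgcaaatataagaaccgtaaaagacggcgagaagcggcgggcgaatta

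Hes1 and Nrarp, the target genes among the members beside Dtx1, were low in both tissues. Hes1 (ENSMUSG00000022528, chr16:30064384-30067796, plus strand), a transcriptional repressor and the textbook target of Notch, was given 14 expected counts in all, with 1, 0, 2 and 5 in BM-Treg and 0, 3, 2 and 1 in SP-Treg, and did not pass the filter. Nrarp (ENSMUSG00000078202, chr2:25180758-25183330, plus strand), which encodes a feedback inhibitor of the Notch complex, stood at 2.52, 1.53, 2.45 and 1.503 CPM in BM-Treg and at 2.51, 3.27, 2.67 and 3.45 CPM in SP-Treg. These values rest on 18 to 56 expected counts per library. The lowest SP-Treg value (2.51 CPM) fell just below the highest BM-Treg value (2.52 CPM), and the log2 fold change was -0.56 (SE 0.32) over all libraries and -0.96 within batch 3.

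Among the other HES and HEY genes, Hey1 was lower in BM-Treg. Hey1 (ENSMUSG00000040289, chr3:8663362-8667039, minus strand), a repressor related to the HES proteins, stood at 1.42, 2.13, 4.16 and 7.94 CPM in BM-Treg and at 17.7, 12.03, 10.4 and 17.7 CPM in SP-Treg. All BM-Treg values lay below all SP-Treg values, and BM-Treg 4 was again the highest of its tissue. The log2 fold change was -1.93 (SE 0.47, adjusted p = 0.036, edgeR, n = 4 per tissue). It was -0.85 within batch 3 and -0.87 with batch as a term (adjusted p = 0.39), and the call was lost without BM-Treg 2, BM-Treg 3, SP-Treg 1, SP-Treg 2 or SP-Treg 4 (adjusted p between 0.062 and 0.095) and with no expression filter (0.13). Hes6, which opposes HES1, averaged 6.80 ± 2.60 CPM in BM-Treg, and in SP-Treg 3.85 ± 1.08 CPM (SD, n = 4 each, log2 fold change 0.81, adjusted p = 0.11). The other 6 HES and HEY genes listed (Hes2, Hes3, Hes5, Hes7, Hey2 and Heyl) did not pass the filter.

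The rest of the pathway was counted beside the shares over all genes. Of 59 listed genes that are not members 45 were tested, and 0 were called higher and 2 lower in BM-Treg (Hey1 and Dtx3l). With edgeR 10 of the 45 had an unadjusted p under 0.05, against 23.3% of all genes, and DESeq2 called 2, against 12.1% of all genes. The share of genes called over the whole table was 8.75%, and the tissues did not overlap for 4 of the 45 (Hey1, Dtx3l, Ncstn and Neurl1a) against 16.2% of all genes. The median log2 fold change of the 45 was 0.07, beside -0.01 over all genes tested.

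By role, the ligands were sparse. Of 7 ligand genes only Jag1 and Jag2 passed the filter. Jag1 averaged 4.66 ± 0.99 CPM in BM-Treg, and in SP-Treg 3.47 ± 1.41 CPM, and Jag2 1.27 ± 0.28 and 0.48 ± 0.55 CPM (SD, n = 4 each, adjusted p = 0.46 and 0.28). Of 6 genes for receptor maturation and sugar transfer edgeR called 0, with 1 at an unadjusted p under 0.05 and 0 called by DESeq2. Over all genes those shares were 8.75, 23.3 and 12.1%, and in roles this small nothing is read from such counts. The best expressed were Mfng and Lfng, the Fringe glycosyltransferases that tune ligand choice, and Poglut1, which adds glucose to the receptor. Lfng averaged 83.7 ± 17.6 CPM in BM-Treg, and in SP-Treg 65.1 ± 13.4 CPM (adjusted p = 0.23), Mfng 52.6 ± 4.195 and 51.2 ± 4.12 CPM (0.88), and Poglut1 29.4 ± 3.23 and 31.7 ± 2.45 CPM (0.65).

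Of 8 tested genes for receptor cleavage edgeR called 0, with 2 at an unadjusted p under 0.05 and 0 called by DESeq2. The shares over all genes were 8.75, 23.3 and 12.1%. Psenen, a subunit of gamma-secretase, averaged 117 ± 16.4 CPM in BM-Treg, and in SP-Treg 95.1 ± 17.3 CPM (SD, n = 4 each, adjusted p = 0.20). Ncstn, another subunit, averaged 84.3 ± 7.72 and 69.8 ± 4.51 CPM with no overlap (adjusted p = 0.12). Psen2, a catalytic subunit, stood at 71.5, 64.5, 67.2 and 113 CPM in BM-Treg and at 68.6, 60.1, 62.7 and 57.8 CPM in SP-Treg. BM-Treg 4 stood above all other libraries for Psen2. The log2 fold change was 0.34 (adjusted p = 0.22) over all libraries and 0.87 within batch 3, and with batch as a term Psen2 was past the threshold (adjusted p = 0.017), a call that rests on BM-Treg 4 alone for the bone marrow.

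Of 8 ubiquitin ligases and adaptors edgeR called 0, with 1 at an unadjusted p under 0.05, and of 7 tested coactivators 0, with 3. Of 10 corepressors it called 0, with 0 at an unadjusted p under 0.05, and DESeq2 called 0 in each of these roles. Over all genes edgeR called 8.75%, an unadjusted p under 0.05 was found for 23.3%, and DESeq2 called 12.1%. Itch, a ligase of the Notch receptor, averaged 127 ± 14.3 and 128 ± 11.5 CPM in BM-Treg and SP-Treg (SD, n = 4 each, log2 fold change -0.01). Fbxw7, which targets the intracellular domain for degradation, averaged 54.6 ± 4.92 and 53.2 ± 8.57 CPM (0.04), and Numb, an inhibitor of the receptor, 29.1 ± 1.08 and 32.2 ± 1.56 CPM (-0.14). The acetyltransferases Crebbp and Ep300 had log2 fold changes of -0.02 and 0.17, and Snw1, a transcriptional cofactor that binds RBPJ, one of -0.28. Among the corepressors Ncor1 had a log2 fold change of -0.01, Hdac1 of -0.15 and Kdm5a of 0.05, with adjusted p of 0.98, 0.44 and 0.82. Maml1, the paralogue of Maml2, had a log2 fold change of 0.38 (SE 0.12, adjusted p = 0.072). Its adjusted p passed the threshold without BM-Treg 1 and under both other expression filters, and it is named here after its values were seen.

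**Figure D3:**
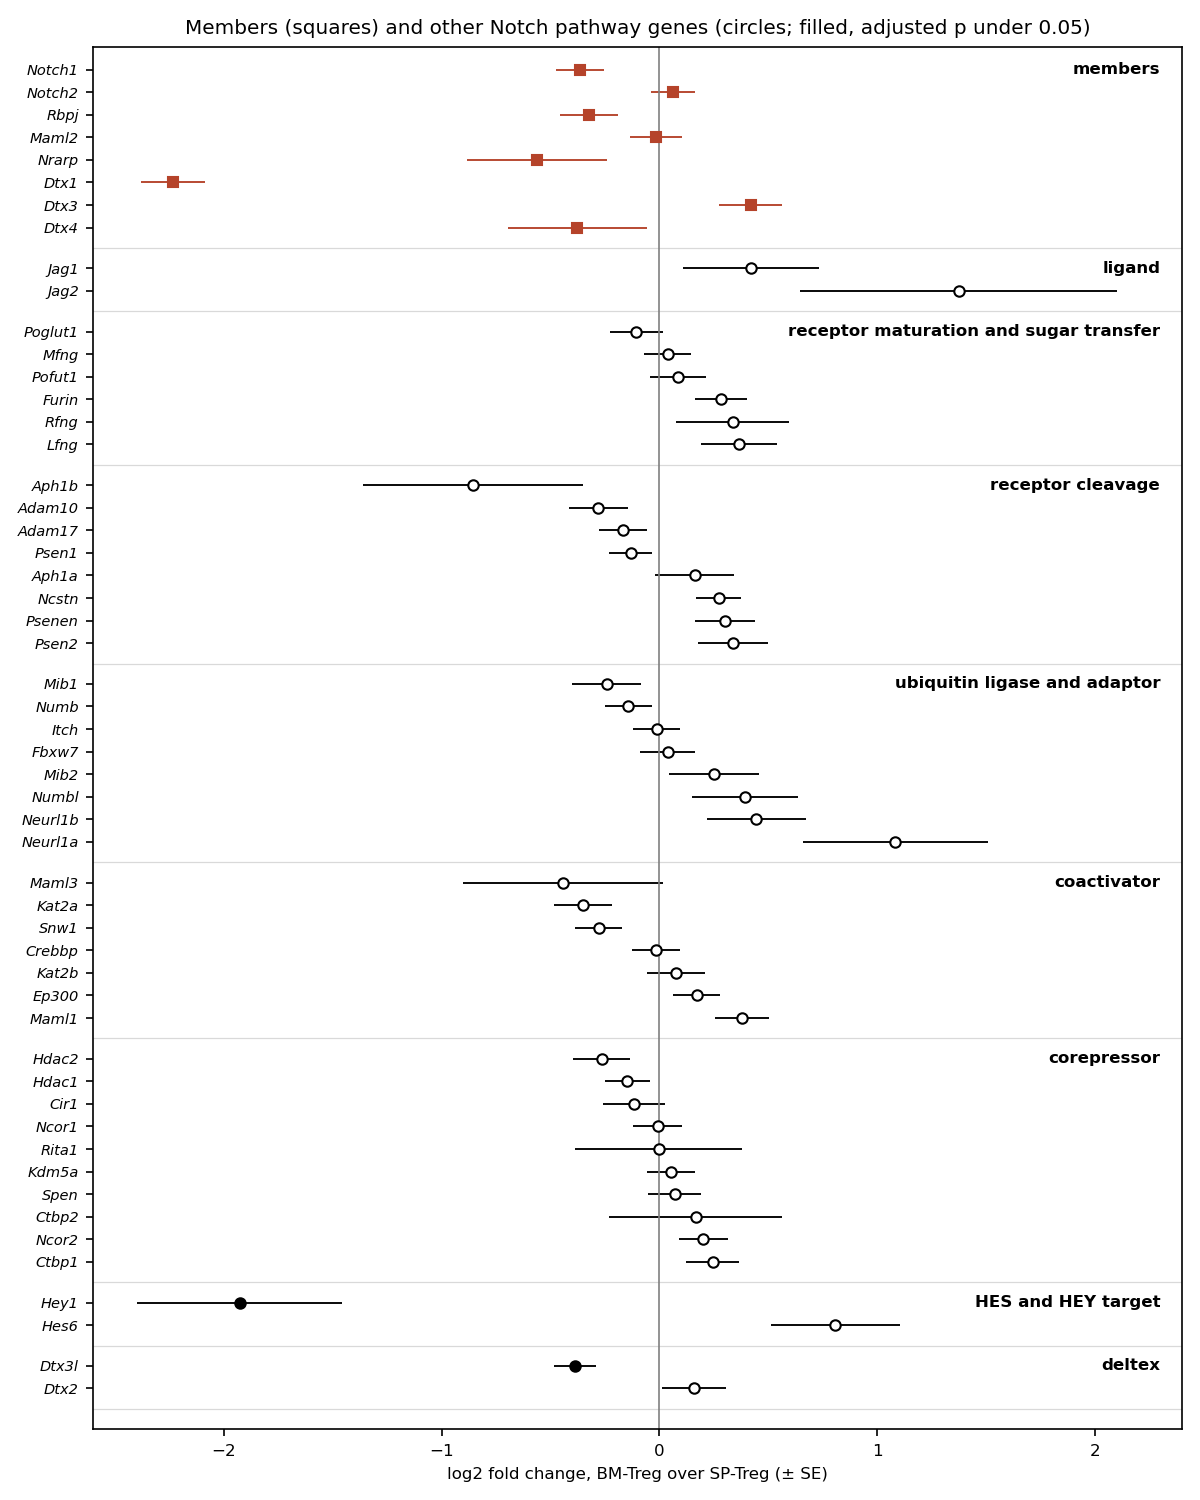
Log2 fold change of BM-Treg over SP-Treg (horizontal axis, bars ± SE) for the 8 tested members (squares) and for 45 other tested Notch pathway genes by role (circles, filled where the adjusted p was under 0.05). Dtx1 at -2.23 and Hey1 at -1.93 stood far to the left, while the median of the 45 was 0.07.

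T cell genes that are textbook targets of Notch moved in both directions. Of 8 listed genes 7 were tested, of which edgeR called 2 higher (Il7r and Gata3) and 2 lower (Tcf7 and Myc) in BM-Treg. The tissues did not overlap in CPM for 5, of which Myc and Bcl11b overlapped on the FPKM scale. The shares over all genes were 8.75% called and 16.2% without overlap in CPM. Changes of Tcf7 and Il7r in these libraries were known when the list was written, and results of Myc network genes were known in part. Il2ra and Cd3e also belong to the Treg markers. Tcf7, which encodes the transcription factor TCF1, stood at 92.8, 60.7, 62.4 and 57.6 CPM in BM-Treg and at 139, 186, 176 and 222 CPM in SP-Treg. Its log2 fold change was -1.40 (SE 0.17, adjusted p = 9.0e-04, edgeR). It was called in each alternative with a test, of which the one with batch as a term (adjusted p = 0.027) rests on BM-Treg 4 alone for the bone marrow. Myc stood at 46.3, 40.3, 52.9 and 44.4 CPM in BM-Treg and at 56.5, 69.0, 135 and 118 CPM in SP-Treg, with a log2 fold change of -1.04 (SE 0.26, adjusted p = 0.041). The Myc call was lost on leaving out any BM-Treg library, SP-Treg 3 or SP-Treg 4 (adjusted p between 0.052 and 0.12), with batch as a term (0.28), on the FPKM scales (0.11 and 0.10) and with no expression filter (0.14).

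Il7r, the IL-7 receptor chain, stood at 578, 623, 605 and 586 CPM in BM-Treg and at 416, 357, 337 and 244 CPM in SP-Treg. The tissues were well apart, with a log2 fold change of 0.82 (SE 0.14, adjusted p = 0.0022, edgeR), and with batch as a term the adjusted p was 0.071. Within batch 3 the log2 fold change was -1.63 for Tcf7, -1.08 for Myc, 0.81 for Il7r and 0.47 for Gata3. Gata3, a transcription factor found in tissue Treg, stood at 223, 204, 236 and 226 CPM in BM-Treg and at 161, 159, 174 and 164 CPM in SP-Treg, and it had a log2 fold change of 0.43 (SE 0.09, adjusted p = 0.0091). With batch as a term the adjusted p of Gata3 was 0.11, and on the FPKM scale it was 0.073. Il2ra averaged 796 ± 95.9 CPM in BM-Treg, and in SP-Treg 1224 ± 394 CPM (adjusted p = 0.080), Cd3e 1356 ± 256 and 1478 ± 92.8 CPM (0.62), and Bcl11b 312 ± 26.4 and 347 ± 12.8 CPM (0.37, SD, n = 4 each). Ptcra, the pre-T cell receptor chain of thymocytes, had no count in any library.

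Levels of different members can be compared only per transcript length, for which the deposited FPKM values were used. These values cover all listed transcripts of a gene, noncoding ones included, so their order is not an order of coding RNA. In SP-Treg the coding transcript ENSMUST00000031607 took a mean of 13.2% of the summed transcript FPKM of Dtx1. For Notch1 the coding transcript ENSMUST00000028288 took 43.7%. In SP-Treg, Dtx1 had the highest mean of the 10, at 65.9 ± 11.1 FPKM (SD, n = 4), followed by Notch1 at 57.3 ± 5.70 FPKM, with overlapping ranges. Dtx3 came next at 27.4 ± 3.50 FPKM, below Notch1 in all 4 libraries, then Rbpj at 12.2 ± 2.72 and Notch2 at 11.9 ± 0.77 FPKM, which overlapped, and Maml2 at 8.86 ± 0.68 FPKM. Nrarp at 1.16 ± 0.15 and Dtx4 at 0.93 ± 0.45 FPKM overlapped, and Hes1 and Notch3 were at or below 0.16 FPKM in every SP-Treg library. In BM-Treg, Notch1 led at 47.0 ± 10.1 FPKM and overlapped with Dtx3 at 34.5 ± 4.97 FPKM. Dtx1 followed at 16.4 ± 5.06 FPKM, below Dtx3 in all 4 libraries, and overlapped with Notch2 at 13.1 ± 1.003 FPKM. Rbpj and Maml2 followed at 10.1 ± 1.46 and 9.24 ± 1.04 FPKM, and the 4 lowest members were the same as in SP-Treg.

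**Figure D4:**
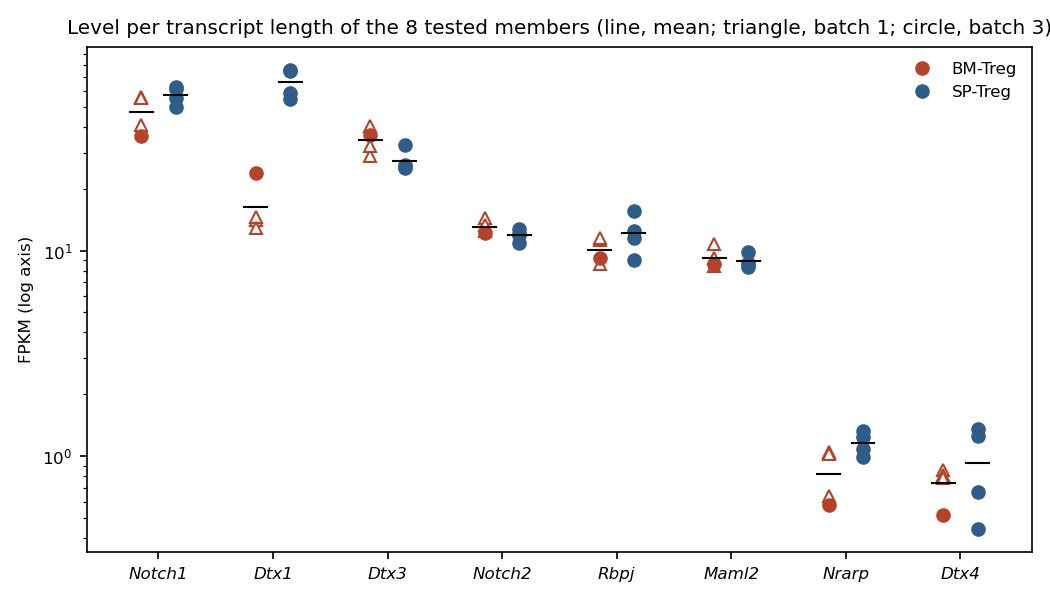
Deposited FPKM (vertical axis, logarithmic) of the 8 tested members in each library, red for BM-Treg and blue for SP-Treg, open triangles for batch 1, filled circles for batch 3 and lines for means. The values cover all listed transcripts of each gene, noncoding ones included. Dtx1 moved from a mean of 16.4 FPKM in BM-Treg to 65.9 FPKM in SP-Treg, while Notch2 had means of 13.1 and 11.9 FPKM.

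The tables also split each gene's expected counts among its listed transcripts. Such splits are estimates and are uncertain where transcripts share sequence. For Dtx1 the larger share was given not to the coding transcript but to ENSMUST00000145174, which GENCODE M21 annotates as a retained intron and which shares the 3′ part of the gene. It took 50.9, 64.0, 67.6 and 61.6% of the Dtx1 counts in BM-Treg and 74.8, 69.3, 56.9 and 70.9% in SP-Treg. The coding transcript ENSMUST00000031607 took 36.0, 25.8, 24.1 and 21.6% in BM-Treg and 17.3, 20.8, 33.0 and 21.6% in SP-Treg. The shares of both transcripts overlapped between the tissues. As a share of the summed transcript FPKM, the mean of ENSMUST00000031607 was 14.01% in BM-Treg and 13.2% in SP-Treg, and that of ENSMUST00000145174 was 43.9 and 53.2%. The expected counts of each of the 5 Dtx1 transcripts were lower in every BM-Treg library than in every SP-Treg library, among them those of the coding transcript, at 111 to 177 against 396 to 514. The counts of ENSMUST00000124079 were at most 11.4 in a library.

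For Dtx3 the estimate for one transcript split with the batch labels. ENSMUST00000038217, a coding transcript, was given 52.7, 11.6 and 25.3% of the Dtx3 counts in BM-Treg 1 to 3, the libraries of batch 1, and 0 in BM-Treg 4 and in all SP-Treg libraries, those of batch 3. ENSMUST00000130855, which has the same outer coordinates, was given 0.13, 37.3 and 29.3% in BM-Treg 1 to 3, 46.4% in BM-Treg 4 and 42.3 to 53.6% in SP-Treg. The main transcript of Dtx3, ENSMUST00000116229, had a steadier share, of 44.4 to 52.9% in BM-Treg and 41.8 to 56.1% in SP-Treg. The counts of Rbpj moved between ENSMUST00000113865, at 38.2 to 97.6% over the 8 libraries, and ENSMUST00000087360, at 0 to 58.4%, with low and high shares in both tissues. For Notch1 the coding transcript ENSMUST00000028288 took 90.3 to 95.5% of the counts in each library, but as a share of the summed transcript FPKM its mean was 44.3% in BM-Treg and 43.7% in SP-Treg. Notch2, Notch3, Nrarp and Dtx4 have a single listed transcript.

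**Figure D5:**
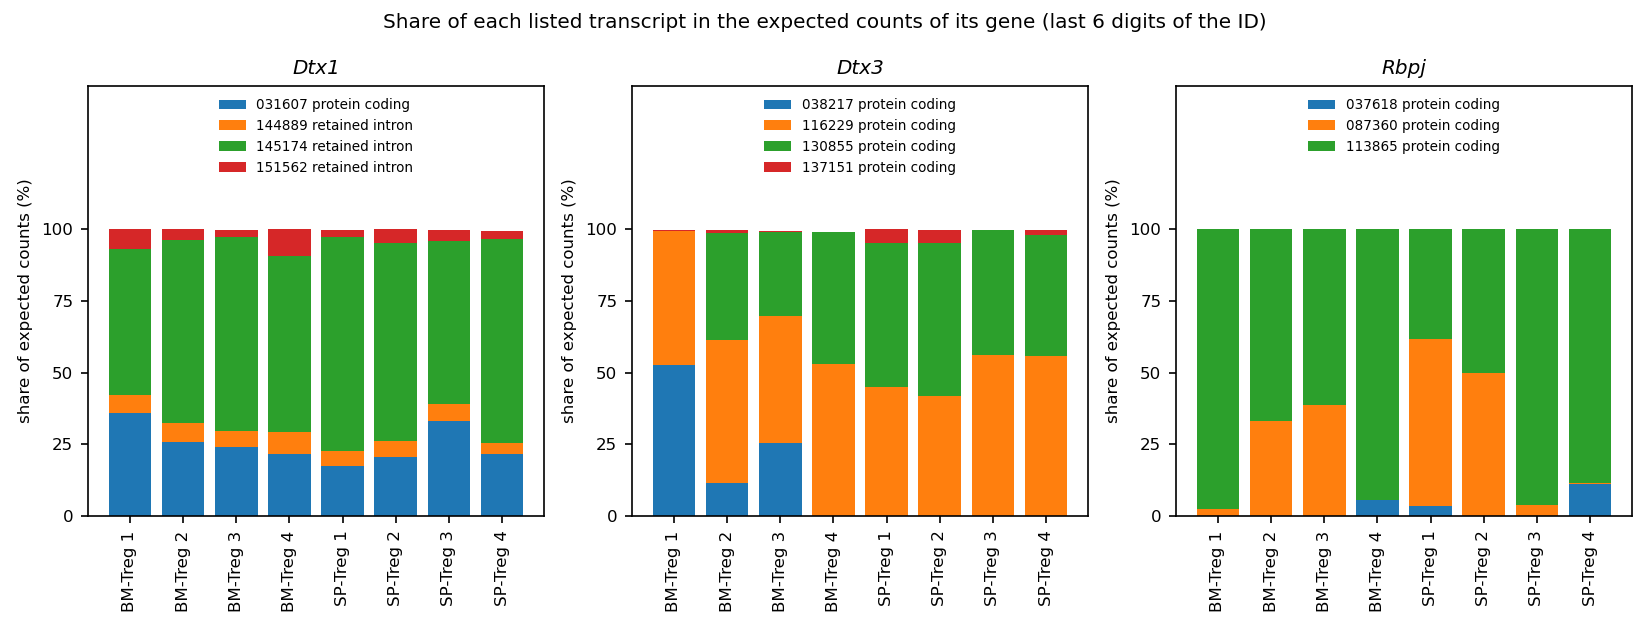
Share of each listed transcript in the expected counts of Dtx1, Dtx3 and Rbpj (stacked bars, %) in each library, with colours for transcripts named by the end of their identifier and GENCODE M21 type, and transcripts that stayed under 2% in every library left out. In Dtx3 the transcript drawn lowest, ENSMUST00000038217, appeared in BM-Treg 1 to 3 (batch 1, females) at 11.6 to 52.7%. It was at 0 in the 5 libraries of batch 3, all from males.

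The genes whose pattern was most like that of Dtx1 were ranked over the 8 libraries by the root mean square difference in log2 CPM, after each gene was centred on its own mean, among 11520 genes whose mean log2 CPM was 1 or more. The 5 nearest were AW011738, Gm15387, Mboat1, Hdgfrp3 and Setbp1, at differences of 0.35, 0.35, 0.39, 0.40 and 0.41. Hdgfrp3 stood at 12.03 to 13.8 CPM in BM-Treg and between 36.5 and 43.0 CPM in SP-Treg, Mboat1, a lysophospholipid acyltransferase, at 3.50 to 5.12 and 13.3 to 19.9 CPM, and Setbp1 at 5.86 to 10.99 and 20.7 to 39.7 CPM. AW011738 stood at 3.07 to 7.60 and 13.6 to 18.8 CPM, with BM-Treg 4 the highest of its tissue as for Dtx1, and Gm15387 at 0.61 to 1.39 and 2.72 to 4.94 CPM. All 5 were lower in every BM-Treg library than in every SP-Treg library, which follows from picking them for their likeness to Dtx1. Egr2, a transcription factor induced by T cell receptor signals, was the seventh, at 8.37 to 18.0 CPM in BM-Treg and between 51.6 and 87.7 CPM in SP-Treg, and is named here after its values were seen. Hey1, which is not a member, ranked 31 in that order. Apart from Dtx1 itself, the nearest member was Nrarp, which ranked 916. A gene already found lower in BM-Treg comes near the top of such an order, so nothing more is read from these ranks.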

How the data were processed

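RNA of sorted FoxP3+ cells was amplified by SPIA (NuGEN), and the libraries were read from one end. The submitters' processing notes name cutadapt 1.9, STAR 2.5.2a, RSEM 1.2.30 and the GRCm38 genome, and the annotation release is not given in the sources used here. The authors deposited expected counts (estimated reads per gene or transcript, without normalization between libraries) and FPKM values (counts scaled by transcript length and depth), with a column per library. Columns were matched to libraries by name and grouped by the tissue in the labels.

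Expected counts were rounded, filtered with edgeR's default on the groups (13397 of 38215 genes kept) and scaled by TMM. The quasi-likelihood test of edgeR (robust, no covariate) was applied, with Benjamini-Hochberg adjustment over all genes tested and a threshold of 0.05. SE is the absolute log2 fold change divided by the square root of F. CPM values rest on TMM-scaled totals of all genes, and log2 CPM on a prior count of 2. Tools were edgeR 4.0.16, DESeq2 1.42.0 and limma 3.58.1 in R 4.3.3. The test was checked on counts simulated with independent libraries and no batch or sex effect. That check does not bear on batch, sex or a possible sharing of mice. The methods call the libraries biological replicates, and errors are the spread between libraries, whose independence is not given for the spleen. Replicate numbers did not pair the libraries of the tissues.

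The members and lists were chosen with earlier results of these data known. Named are all members, every pathway or T cell target gene past the threshold, the 3 genes of each role with the highest mean FPKM, the 5 genes most like Dtx1, and markers where a result turns on them. All 125 list entries matched a gene, 4 of them by identifier through the current symbol. Lists of B cell, marginal zone B cell, plasma cell, neutrophil, macrophage, erythroid, pDC, CD8 T cell and Treg markers were summed in CPM. Coordinates are those of the deposited tables, and transcript types are from GENCODE M21. Promoters came from RefSeq (GRCm38.p6). Alternatives were DESeq2, its size factors in edgeR, other expression filters, a batch term, batch 3 alone, limma-trend on log2(FPKM + 1) and log2(FPKM + 0.1), the replicate block, a threshold of 0.01 and each library left out in turn.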

Additional observations from a re-analysis of the deposited data

Results flagged for a closer look

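In BM-Treg, the Tcf7 level of BM-Treg 1 (92.8 CPM) stood apart from the other 3 libraries (57.6 to 62.4 CPM). Its gap to the nearest library, divided by the range of the group on the log2 CPM scale, was 0.831, which is just above Dixon's critical value for 4 samples. Dixon's test was run on 46 groups, of which 1 was flagged, and chance flags about 1 group in 20.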

How the results depend on the processing

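Direction held for each tested member in each alternative, except for Maml2, and Dtx1 was lower in BM-Treg throughout, at a log2 fold change of -1.80 in batch 3 alone, -1.82 with batch as a term and -1.97 on log2(FPKM + 1). Of the members, 1 was past the threshold with all libraries and 2 with DESeq2 or with no filter beyond 1 count in total, and leaving out a library gave 1 to 2 (2 without SP-Treg 4). The count of other pathway genes called was 2, and it was 3 with at least 10 counts in every library (Maml1 added), 1 with batch as a term, 1 on each FPKM scale, 0 at a threshold of 0.01 and 0 to 2 when a library was left out (0 without BM-Treg 2 or SP-Treg 1). The gene called with batch as a term was Psen2. The count of T cell target genes called was 4, and it was 1 with batch as a term, 2 on each FPKM scale and 3 to 5 when a library was left out. Over all genes the main count of 1172 compared with 258 with batch as a term, 728 on log2(FPKM + 0.1), 765 on log2(FPKM + 1) and 690 without BM-Treg 2. The cause of these changes was not tested. With the replicate block, 948 genes were called over the table, with 1 member, 2 other pathway genes and 5 T cell target genes. By the labels BM-Treg 1 to 3 came from females and SP-Treg 1 to 3 from males, so those numbers cannot mark the same mouse. Same-numbered libraries also did not deviate together (correlations of -0.11, 0.06, -0.18 and 0.04 across genes for numbers 1 to 4). The numbers were therefore not taken as pairs. Batch 3 alone was given as values with no test, and the fit with batch as a term rests on the same single BM-Treg library. Hes1 and Notch3, with at most 5 counts in a library, were too shallow for a difference to be detectable, and Nrarp and Dtx4 rest on 18 to 103 counts per library.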

Other observations

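The remaining marker lists overlapped between the tissues in their summed level. The 4 plasma cell markers summed to 341 to 490 CPM in BM-Treg and 359 to 494 CPM in SP-Treg, nearly all of it from Prdm1 and Xbp1, which Treg also express. Jchain, the joining chain of secreted antibodies, was at or below 0.39 CPM in BM-Treg and in SP-Treg 1, and at 24.6, 8.94 and 5.65 CPM in SP-Treg 2 to 4. The 8 neutrophil markers summed to 1.31 to 9.86 CPM in BM-Treg and 0.216 to 16.9 CPM in SP-Treg, with Ly6g at 0 in all 8 libraries. The 5 macrophage markers summed to 29.6 to 44.2 and 21.4 to 52.4 CPM, the 5 pDC markers to 15.2 to 28.4 and 20.3 to 43.2 CPM, and the 6 Treg markers to 7209 to 8562 and 7911 to 8730 CPM. SP-Treg 1 was the SP-Treg library with the lowest sum for the B cell, marginal zone B cell, neutrophil, macrophage, erythroid, pDC and CD8 T cell lists.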
